A study of Homo sapiens with 6 samples.

Results

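Small RNA tables of BEAS-2B, a human airway epithelial cell line, list short RNAs that were predicted to be PIWI-interacting RNAs (piRNAs) and placed in a transposable element. The members described here are the rows of class piRNA whose description places them in a LINE or a SINE element. There were 399 such rows among the 4212 rows of all classes, and among 1574 piRNA rows. All 399 were in LINE elements and none was in a SINE element. No row of any class named a SINE element in any library. Whether the prediction considered SINE elements is not given in the sources used here, so this does not show that RNAs from them were absent. The other piRNA rows were 329 in LTR elements, 200 in DNA transposons, 12 in 1 element described as DNA without a family, and 634 with the name of a piRNA database entry.

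BEAS-2B cells received the empty plasmid pcDNA3.1 (control, 3 libraries) or the plasmid pcDNA-PRMT1 (PRMT1, 3 libraries), both for 48 h. The labels call the second group PRMT1 over-expression; PRMT1 is an arginine methyltransferase. The labels name neither separate cultures nor clones, so p-values cover the spread between these libraries, which may be technical. The tables hold small RNA classes and no row for PRMT1 messenger RNA, so the overexpression could not be checked in them. The comparison bears on whether these predicted small RNAs differ in level after PRMT1 plasmid.

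LINE elements are retrotransposons that encode their own reverse transcriptase and copy themselves through an RNA intermediate. L1 is the family still active in the human genome, L2 and CR1 copies are ancient and no longer move, and Dong-R4 is a rare related family. piRNAs are slightly longer than microRNAs and guide PIWI proteins to transposon RNA and chromatin, best known from the germ line, where they are often made in clusters from 1 strand of a locus. A prediction from reads does not show binding to a PIWI protein, which was not measured here. SINE elements, such as Alu, are short and depend on the proteins of LINE elements to move.

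Depth was similar in all libraries, with 23.95 M to 25.79 M counts. Known miRNAs held 46.2% to 65.5% of the counts, with the highest share in control library 2. Totals for exon, intron, intergenic and repeat reads held 23.3% to 40.4%. The epithelial miRNA markers were all detected (7 of 7), with a summed level of 4150 to 5090 CPM (counts per 1000000 counts of the library) in control, against 3770 to 5290 CPM with PRMT1. Of 8 markers of germ and pluripotent cells, 5 were detected, at a summed 0.0399 to 0.0833 CPM in control, against 0.0417 to 0.0832 CPM with PRMT1, and miR-367-3p, miR-371a-5p and miR-373-3p were at 0 in every library. Summed markers of blood cells ranged from 37.4 to 73.0 CPM, those of muscle from 5.55 to 6.9 CPM, and the liver miRNA miR-122-5p from 0.334 to 0.791 CPM. The endothelial miR-126-3p ranged from 746 to 1340 CPM. All markers of blood (4 of 4), muscle (3 of 3), liver (1 of 1) and endothelial cells (1 of 1) were detected too, so detection alone does not set the epithelial list apart.

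The descriptions of the 399 rows name 85 genomic intervals, on 21 chromosomes, each given as a LINE and called an element here. L1 contributed 355 rows from 60 elements and 95.5% of the counts. L2 contributed 28 rows from 20 elements (1.81% of the counts), and CR1 contributed 14 rows from 3 elements (2.64%). Dong-R4 had 2 rows from 2 elements (0.0595%). The elements spanned 48 to 3400 bases, with a median of 459. In 57 elements a single row was listed, whereas 28 elements had several. Coordinates below are those intervals as the tables give them, with GRCh37.p13 as the build in the submitters' processing notes. The position of a single RNA within its interval is not given in the sources used here. Unless stated, levels are CPM relative to all counts in a library, with no length term.

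Each element was listed on 1 strand only, with 42 elements on plus and 43 on minus. Rows were less evenly divided, with 258 on plus and 141 on minus, and the 2 elements with the most rows are both on plus. All 3 CR1 elements were on plus, as were 12 of 20 L2 elements and 26 of 60 L1 elements. Whether the strand is that of the element or of the RNA is not given in the sources used here. Plus-strand rows held 82.43%, 82.38% and 82.72% of the member counts in control libraries 1 to 3, and 79.28%, 82.55% and 79.88% in PRMT1 libraries 1 to 3. The lowest control value lay below PRMT1 library 2, so the groups overlapped (two-sided exact permutation test, p = 0.3).

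A row of this kind was never listed below 10 counts in any library, which is 0.388 to 0.417 CPM. An unlisted row therefore had fewer counts than that or was not predicted, and it does not show that the RNA was absent. Database piRNAs, in contrast, were listed from 1 count. Unlisted rows were entered as 0 in the sums and fits, and rows listed in every library are given apart where it matters.

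A few L1 copies held most of the signal. The element at chr7:48672234-48672852 on plus had 141 rows, 72 of them listed in all 6 libraries, and 45.92% of the member counts. It summed to 528.6, 249.2 and 469.7 CPM in control libraries 1 to 3, and to 449.4, 427.0 and 458.5 CPM in PRMT1 libraries 1 to 3. Control library 2 was low and the other control libraries were above all PRMT1 libraries, so the groups overlapped. The element at chrX:121106366-121108397 on plus had 45 rows and 26.27% of the counts. Its levels were 222.5, 198.4 and 275.4 CPM in control, against 245.3, 225.5 and 311.0 CPM with PRMT1, again with overlap. An L1 element on chromosome 8, on minus, had 41 rows and 9.11% of the counts, at 115.3, 43.4 and 91.0 CPM in control, against 100.3, 61.4 and 102.7 CPM with PRMT1. These 3 elements held 227 rows (56.89%) and 81.3% of the counts. The 20 elements listed in all 6 libraries held 97.47%. How reads that match several L1 copies were placed is not given in the sources used here, so the level of a single copy is uncertain.

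**Figure D1:**
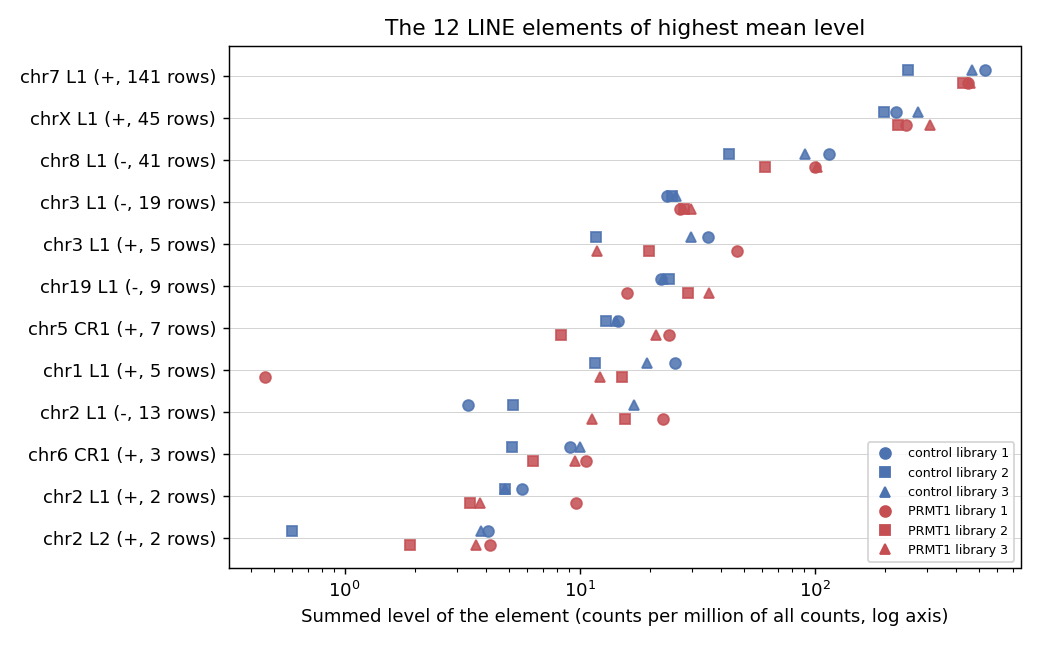
Summed level of the 12 LINE elements of highest mean level, in CPM of all counts on a log axis. Each point is 1 library, with colour for the group and the marker shape for the library number, and labels give chromosome, family, strand and number of rows. The groups overlap for the 3 elements with most rows, and PRMT1 library 1 lies far to the left for the chromosome 1 element.

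The smaller elements differed in how much they varied between libraries. The L1 element at chr3:76828326-76831273 on minus, with 19 rows, had the narrowest range of the 20 elements listed in all 6 libraries, 1.26-fold from lowest to highest. Its levels in CPM were 23.48, 24.71 and 25.7 in control, against 26.83, 27.92 and 29.68 with PRMT1, which did not overlap. Relative to the counts used in the fits, which leave out the class totals (14.43 M to 19.23 M per library), the same counts gave 37.65, 32.24 and 42.75 CPM in control, against 40.83, 46.83 and 49.27 CPM with PRMT1, and there the groups overlapped. They also overlapped when TMM factors, which adjust for library composition, were applied to those totals (36.22, 42.17 and 40.62 CPM, against 39.06, 42.97 and 46.92 CPM). At the other end, the L1 element at chr1:41465686-41465887 on plus had 621, 292 and 465 counts in control but 11, 392 and 292 counts with PRMT1. Only PRMT1 library 1 was low there, at 0.458 CPM against at least 11.6 CPM in each other library. Most of that difference was in 1 row, novel_pir43, with 564, 245 and 388 counts in control, against 11, 281 and 258 with PRMT1.

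The groups overlapped in each of the following multi-row elements. The L1 element at chr2:117770025-117770421 on minus was above 10 CPM in control library 3 (17.08) and in PRMT1 libraries 1 to 3 (22.63, 15.63 and 11.31), and lay at 3.35 and 5.22 CPM in control libraries 1 and 2. The L1 element at chr19:50640122-50640330 on minus had 22.18, 23.91 and 22.62 CPM in control, with PRMT1 library 1 below that range (15.89) and PRMT1 libraries 2 and 3 above it (28.93 and 35.4). At chr3:192691586-192692036 on plus, an L1 element was highest in PRMT1 library 1 (46.84 CPM) and lowest in control library 2 and PRMT1 library 3 (11.76 and 11.82 CPM).

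In the minor families, levels were low and uneven. L2 rows summed to 15.56, 4.27 and 14.25 CPM in control, against 36.94, 5.04 and 26.72 CPM with PRMT1. Library 2 of each group was low, and libraries 1 and 3 of PRMT1 were above all others. Rows novel_pir254 and novel_pir281, in 2 different L2 elements on chromosome 3, carried much of this, with 178 and 122 counts for novel_pir254 and 182 and 58 for novel_pir281 in PRMT1 libraries 1 and 3, and no more than 39 counts for either in any other library. The L2 row listed in all 6 libraries with the highest level, novel_pir161 at chr2:121343757-121344079, had 81, 15 and 68 counts in control, against 67, 49 and 71 with PRMT1.

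CR1 rows summed to 23.73, 18.13 and 24.41 CPM in control, against 36.15, 14.74 and 31.94 CPM with PRMT1. PRMT1 libraries lay on both sides of the control range. The CR1 rows of highest level were novel_pir398 in the element at chr5:58999478-58999620 (152, 154 and 152 counts in control, 242, 103 and 224 with PRMT1) and novel_pir425 at chr6:126448905-126449084 (189, 110 and 185, then 161, 120 and 152 counts). The same chromosome 5 element held novel_pir401, with 111, 102 and 86 counts in control, against 124, 57 and 113 with PRMT1. Of the 2 Dong-R4 rows, novel_pir763 at chr13:100484071-100484360 had 20 counts in control library 3 and 25, 12 and 14 with PRMT1, and was unlisted in control libraries 1 and 2. The other, novel_pir870 at chrX:31715009-31715412, was listed once, with 11 counts in PRMT1 library 1.

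The single rows of highest level came from the chrX, chr7 and chr8 elements. First was novel_pir884 of the chrX element, with 22.18, 25.27 and 31.78 CPM in control, against 18.18, 28.04 and 32.19 CPM with PRMT1. Next to it in level was novel_pir881 of the same element, with 20.46, 23.36 and 30.24 CPM in control, against 16.31, 27.73 and 31.69 CPM with PRMT1. The values of novel_pir489 of the chr7 element were 18.58, 16.66 and 25.95 CPM in control, against 12.19, 29.55 and 27.64 CPM with PRMT1. In all 3 rows PRMT1 library 1 was the lowest of the 6, and the groups overlapped. The other 7 of the 10 highest rows had mean levels from 12.61 CPM (novel_pir484) to 15.23 CPM (novel_pir633), with novel_pir886 (14.98), novel_pir531 (13.86), novel_pir889 (13.52), novel_pir485 (13.15) and novel_pir486 (13.04) between them. These means lie closer together than the values of any 1 of these rows over the libraries, so their order is not resolved. In novel_pir633 of the chr8 element, for example, levels were 24.91, 8.93 and 18.29 CPM in control, against 13.89, 12.6 and 12.78 CPM with PRMT1.

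The pattern of novel_pir884 over the 6 libraries was most like that of novel_pir881 (Pearson r = 0.996) and novel_pir873 (r = 0.982), both from the same element. Next came the small nucleolar RNA families SNORD57 (r = 0.97) and snR60/Z15/Z230/Z193/J17 (r = 0.967), and novel_pir842 of the chr19 L1 element (r = 0.96). These values describe 6 libraries and were the highest among all tested rows, so no test applies to them.

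Of the 399 rows, 161 (40.35%) were listed in all 6 libraries, and they held 88.35% of the counts. By library they held 93.6%, 96.9% and 92.2% of the member counts in control libraries 1 to 3, and 79.7%, 91.8% and 80.0% in PRMT1 libraries 1 to 3. The share listed in all 6 was 42.54% for L1 (151 of 355 rows), 14.29% for L2 (4 of 28) and 42.86% for CR1 (6 of 14), and neither Dong-R4 row was. It was 26.7% for LTR rows, 25.5% for DNA transposon rows and 26.7% for database piRNAs, which have another listing limit. Of the 161 LINE rows, 72, 28, 18 and 14 came from the 4 elements with most rows, which had 141, 45, 41 and 19 rows. Only 29 came from all other elements, so the higher share of LINE rows rests largely on those 4. A further 92 rows were listed in 1 library only and held 0.894% of the counts, with a median of 11.5 counts, close to the limit of 10.

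Control libraries 1 to 3 listed 237, 191 and 253 of the rows, and PRMT1 libraries 1 to 3 listed 293, 250 and 304. PRMT1 libraries 1 and 3 had the most, and PRMT1 library 2 fell within the control range. The means were 227 ± 32.2 in control, against 282.3 ± 28.5 with PRMT1 (SD, n = 3 each; two-sided exact permutation test, p = 0.2, adjusted p = 0.5 over 15 measures of this kind). The smallest p that 3 against 3 libraries allow is 0.1. Rows of at least 1 CPM gave the same order of group means, with 162, 126 and 164 in control, against 197, 161 and 207 with PRMT1 (exact permutation p = 0.3). Rows listed in no other library numbered 10, 1 and 6 in control, against 33, 13 and 29 with PRMT1, which did not overlap (exact permutation p = 0.1, adjusted p = 0.5). Such counts by library are not given here for other predicted piRNA rows.

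**Figure D2:**
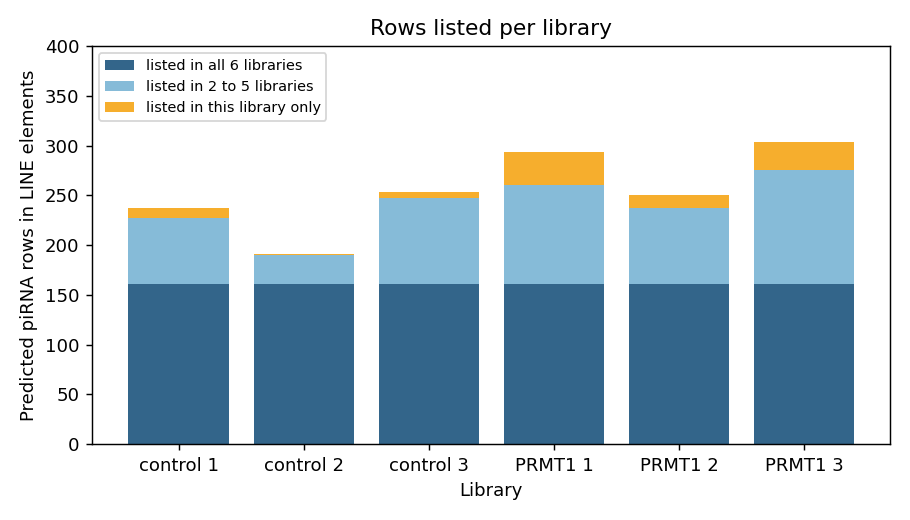
Number of predicted piRNA rows in LINE elements listed in each library, stacked by whether a row was listed in all 6 libraries, in 2 to 5, or in that library alone. The 161 rows listed everywhere form the same base in each bar, and PRMT1 libraries 1 and 3 add most rows above it.

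By group, 265 rows were listed in both, 114 in PRMT1 libraries only and 20 in control libraries only. This split is not given here for other predicted piRNA rows, so it is not shown to be particular to LINE rows. LINE rows were 44.5%, 48.7% and 47.1% of all predicted piRNA rows in control libraries 1 to 3. They were 43.7%, 48.8% and 46.6% in PRMT1 libraries 1 to 3. Of the 114 rows in PRMT1 libraries only, novel_pir426 alone was listed in all 3 PRMT1 libraries, with 18, 10 and 27 counts. It lies in the CR1 element at chr6:126448905-126449084. Of the 20, only novel_pir473 was listed in all 3 control libraries, with 18, 11 and 11 counts, and it lies in the chr7 L1 element with 141 rows. The counts of both rows are near the listing limit of 10. An unlisted row may hold up to 9 counts or may not have been predicted, so no fold is given.

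The rows listed in PRMT1 libraries only came mainly from 2 of the 3 libraries. Libraries 1 and 3 alone shared 32 rows in 17 elements that no other library listed. Whole elements showed the same split, with 34, 23 and 34 elements listed in control, against 60, 30 and 57 with PRMT1 (exact permutation p = 0.3). Of 43 elements listed in PRMT1 libraries only, 28 were in library 1, 23 in library 3 and 2 in library 2, none in all 3, and the highest had 61 counts. The 2 with the highest counts were L1 elements at chr1:30503389-30504538 (44 counts in PRMT1 library 1 and 61 in library 3) and chr6:23537903-23538340 (37 and 54 counts). Another 6 elements were listed in control libraries only, with at most 13 counts. PRMT1 libraries 1 and 3 also had the most predicted piRNA rows of all kinds, 670 and 652 against 392 to 537 elsewhere, and the part of this in the result was not tested.

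Summed over all members, levels were 1039, 604.4 and 1010 CPM in control, against 1037, 862 and 1075 CPM with PRMT1. Control library 2 was the lowest, and the remaining 5 libraries ranged from 862 to 1075 CPM. In bulk libraries, a lower level per cell and fewer cells with the RNA cannot be told apart. The means were 884.6 ± 243.1 and 991.6 ± 113.8 CPM (SD, n = 3 each; two-sided exact permutation test, p = 0.6). Without control library 2, the control mean was above the PRMT1 mean, with a log2 ratio of -0.0475. Over the 161 rows listed everywhere the log2 ratio was -0.00722. Control library 2 also had the largest share of known miRNA counts and a TMM factor of 0.749, against 1.04 to 1.09 in the others, and the part of this in the sum was not tested.

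By family, L1 rows summed to 850.9 ± 233.4 CPM in control, against 940.2 ± 89.4 CPM with PRMT1 (exact permutation p = 0.7). L2 rows summed to 11.36 ± 6.18 and 22.9 ± 16.3 CPM (exact permutation p = 0.3), and CR1 rows to 22.09 ± 3.44 and 27.61 ± 11.3 CPM (exact permutation p = 0.5). Adjusted over the 3 families, each p was 0.7 by the same exact permutation test, and Dong-R4 was not tested. The groups overlapped in every family. When 1 library was left out, the log2 ratio ran from 0.484 (without PRMT1 library 1) to 1.49 (without PRMT1 library 2) for L2, and from 0.0792 to 0.624 for CR1 without the same libraries. LINE rows held 51.39%, 43.13% and 51.71% of all predicted piRNA counts in control, against 42.77%, 52.38% and 41.53% in PRMT1 libraries, also with overlap (exact permutation p = 0.6).

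Single rows were tested with the quasi-likelihood test of edgeR over rows of all classes, with Benjamini-Hochberg adjustment over the 1712 rows that passed the filter on low counts. Among them were 247 of the 399 members, 161 listed in all 6 libraries and 86 unlisted in at least 1. None of the 247 passed an adjusted p of 0.05, and the percentage over all tested rows was 0.0%. The lowest adjusted p of a member was 0.9997. At an unadjusted p of 0.05 there were 3 members (1.21%) against 3.5% of all tested rows, and limma-voom called 0 members. DESeq2, fitted without that filter, called 2 members, novel_pir426 (adjusted p = 0.0421) and novel_pir473 (adjusted p = 0.0452), against 0.238% of all its rows. These are the 2 rows above that are unlisted in a whole group, and each call rests on 3 unlisted values entered as 0. Both rows were removed by the filter, and in edgeR without a filter the adjusted p of each was 0.727.

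The median log2 fold change of the 247 tested members was 0.13, with 140 above 0 and 107 below, and that of all tested rows was 0.00, with 50.2% above 0. For the 161 members listed in every library the median was -0.02, with 76 above 0 and 85 below. Groups did not overlap, on CPM of the counts in the fit with TMM factors, for 10 of the 247 members, 7 higher and 3 lower in PRMT1. That is 4.05% of the members, against 8.29% of all tested rows (3.56% higher and 4.73% lower).

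**Figure D3:**
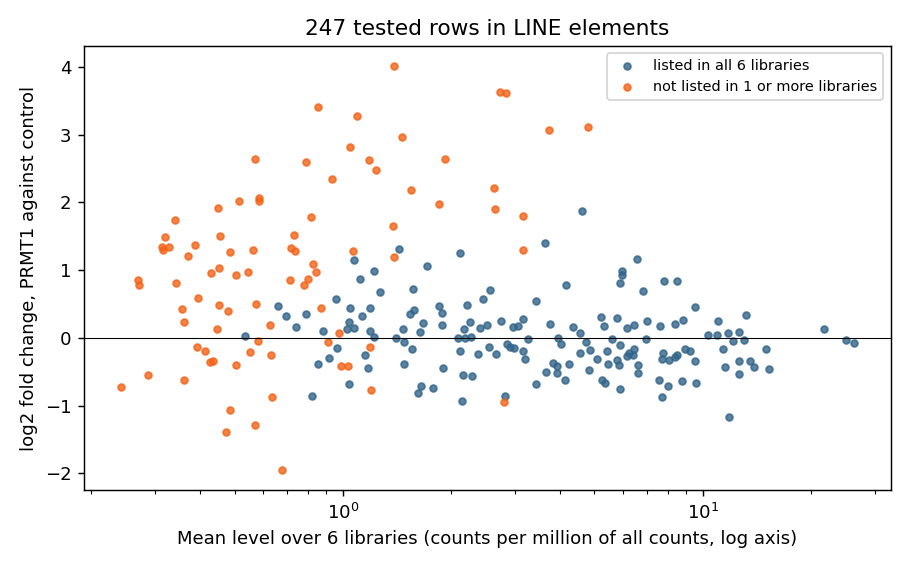
log2 fold change of PRMT1 against control for the 247 tested rows in LINE elements, against the mean level over 6 libraries in CPM on a log axis. Rows not listed in 1 or more libraries have the widest scatter, and rows listed in all 6 lie around 0 with a median of -0.02.

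The rows of smallest p that were higher in PRMT1 all came from the chr7 element with 141 rows. This element held 108 of the 247 tested members, 58 above 0 and 50 below, with a median log2 fold change of 0.07. Groups did not overlap for 4 of the 108 (3.7%), against 8.29% of all tested rows. The values of novel_pir553 were 13, 17 and 17 counts in control, against 53, 29 and 29 with PRMT1 (log2 fold change 1.14, SE 0.41, adjusted p = 0.9997). For novel_pir515 they were 183, 82 and 136 in control, against 300, 223 and 225 with PRMT1 (log2 fold change 0.83, SE 0.34). In these rows, and in novel_pir500 and novel_pir530, every PRMT1 library was above every control library, but none passed the adjusted threshold. The third row at an unadjusted p of 0.05, novel_pir508, had 11 and 19 counts in control libraries 1 and 3, was unlisted in control library 2, and had 189, 14 and 176 counts with PRMT1 (log2 fold change 3.61, SE 1.34, with the unlisted value entered as 0). Its high values were in PRMT1 libraries 1 and 3 alone, and the same held for novel_pir487, with 18 and 52 counts in control libraries 1 and 3 and 328, 16 and 279 with PRMT1.

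The rows of smallest p that were lower in PRMT1 came from the chr8, chrX and chr7 elements. The values of novel_pir621 (chr8) were 92, 36 and 75 counts in control, against 42, 44 and 25 with PRMT1 (log2 fold change -0.94, SE 0.42), and those of novel_pir895 (chrX) were 126, 71 and 110 and then 53, 83 and 64 counts (-0.69, SE 0.32). For novel_pir504 (chr7) the counts were 360, 133 and 227 in control, against 108, 184 and 120 with PRMT1 (-0.87, SE 0.41). In each, control libraries 1 and 3 were above all PRMT1 libraries and control library 2 was not. The others, novel_pir520, novel_pir634 and novel_pir627, had log2 fold changes from -0.82 to -0.55, and none of the 6 passed the adjusted threshold. On CPM of the counts in the fit with TMM factors, novel_pir627 (chr8) was lower in every PRMT1 library than in every control library. On CPM of all counts its groups overlapped (3.35, 1.75 and 2.46 in control, against 1.91, 1.59 and 1.88 with PRMT1).

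Members were also summed per element and fitted with all other rows. Of 33 elements tested, none passed, where the percentage over all 1498 tested rows was again 0.0%. No element reached an unadjusted p of 0.05 either, against 3.81% of all tested rows, and the lowest was 0.105. The log2 fold change was above 0 in 27 elements and below 0 in 6, with a median of 0.27. These include 13 elements unlisted in at least 1 library, and over the 20 elements listed in all 6 it was above 0 in 16 and below 0 in 4, with a median of 0.13, beside 49.6% above 0 over all rows of that fit. It was 0.04 (SE 0.28) for the chr7 element with 141 rows, 0.10 (SE 0.24) for the chrX element and 0.03 (SE 0.40) for the chr8 element. Without control library 2 it was -0.21 for this chr7 element and -0.28 for the chr8 element, and without control library 1 it was 0.29 and 0.36. For the chr1 element that was low in PRMT1 library 1 it was -1.05 (SE 1.05). On CPM of the counts in the fit with TMM factors, the groups did not overlap for 1 element of the 33, against 9.21% of all tested rows. It is the L1 element at chr7:48246242-48249642 on minus, with 10, 16 and 13 counts in control, against 26, 26 and 17 with PRMT1 (log2 fold change 0.72, SE 0.43). On CPM of all counts its groups did not overlap either (0.408, 0.638 and 0.542 in control, against 1.082, 1.008 and 0.710 with PRMT1). Its counts are near the listing limit of 10.

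Rows of the same element did not keep their proportions between libraries. Within the chr7 element, novel_pir484 had 463, 194 and 421 counts in control, against 164, 405 and 214 with PRMT1, so it was lowest in PRMT1 library 1. In the same element novel_pir561, named after its values were seen, had 42, 11 and 87 counts in control, against 274, 26 and 228 with PRMT1, and was highest in PRMT1 library 1. Within the chrX element, novel_pir892 and novel_pir887 were also chosen after their values were seen. The first had 123, 42 and 123 counts in control, against 382, 45 and 240 with PRMT1. For novel_pir887 the counts were 135, 173 and 175 and then 86, 198 and 141. In the chr8 element novel_pir630, chosen in the same way, had 60, 10 and 73 counts in control, against 164, 17 and 205 with PRMT1. The rows novel_pir561, novel_pir892 and novel_pir630 were all high in PRMT1 libraries 1 and 3 and low in library 2 of both groups. As they were chosen after their values were seen, this pattern describes these rows only. Over all rows listed in all 6 libraries, Pearson r of log2 CPM between libraries ran from 0.709 to 0.956 in the chr7 element. In the chrX element it ran from 0.454 to 0.986.

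**Figure D4:**
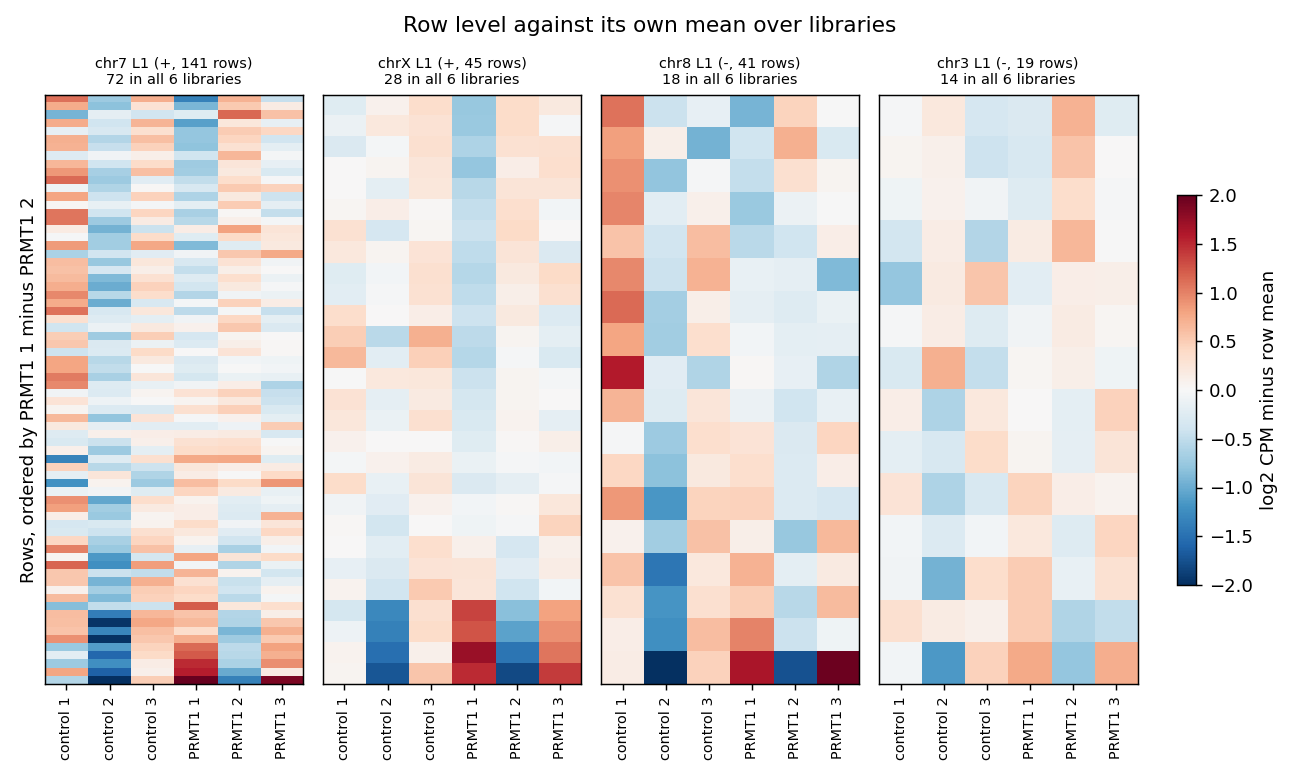
Level of each row listed in all 6 libraries, as log2 CPM minus its own mean over libraries, in the 4 elements with most rows. Rows run down, ordered by PRMT1 library 1 minus PRMT1 library 2, and columns are libraries. This order itself puts at the bottom of each panel the row highest in PRMT1 library 1 relative to PRMT1 library 2. That row is also high in PRMT1 library 3 and low in control library 2.

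Reproducibility between libraries was described by the correlation of log2 CPM over the 161 rows listed in all 6, which share elements and libraries and are not independent. Pearson r ran from 0.647 to 0.908 between libraries of the same group and from 0.645 to 0.933 between groups. The highest value joined control library 2 with PRMT1 library 2 (0.933), and the lowest within a group joined PRMT1 libraries 1 and 2 (0.647). PRMT1 libraries 1 and 3 had r = 0.828. The range within groups thus lay inside the range between groups.

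The 4 elements with most rows were also taken one by one. Control library 2 and PRMT1 library 2 had r = 0.956, 0.986, 0.941 and 0.904 in the chr7, chrX, chr8 and chr3 elements, whereas PRMT1 libraries 1 and 2 had r = 0.712, 0.454, 0.657 and 0.64. The first pair was the highest of all pairs in the chr7, chrX and chr8 elements, but in the chr3 element control library 3 with PRMT1 library 3 (0.923) and PRMT1 libraries 1 and 3 (0.921) were above it. The second pair was the lowest in the chrX and chr3 elements, while control library 2 with PRMT1 library 1 was the lowest in the chr8 element (0.582), and control library 1 with PRMT1 library 1 in the chr7 element (0.709). Over the 29 other rows listed everywhere, PRMT1 library 1 was least like the rest of its group, with r = 0.458 against library 2 and 0.415 against library 3. Among known miRNAs with at least 10 counts in all libraries (587 rows) r ran from 0.972 to 0.985, among LTR piRNA rows (88 rows) from 0.595 to 0.906, and among DNA transposon piRNA rows (51 rows) from 0.817 to 0.915. For database piRNAs with at least 10 counts in all libraries (104 rows) it ran from 0.678 to 0.966. As r depends on the spread of levels in a set, these ranges are not directly comparable. Listed members had 10 to 771 counts, whereas miR-21-5p alone held 49.4% to 66.0% of known miRNA counts. Counts of control library 2 and PRMT1 library 2 differed by more than counting error alone, with a chi-square of 4.53 per degree of freedom over the 161 rows, where other pairs gave 8.44 to 26.6. Their tables are thus not copies of each other, and the value covers counting error only and does not show whether they came from separate cultures.

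**Figure D5:**
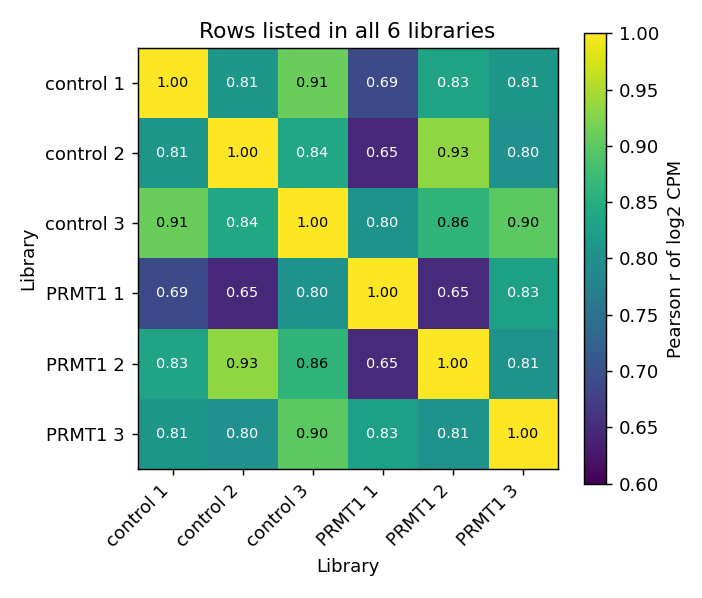
Pearson correlation of log2 CPM between libraries over the 161 rows listed in all 6, with rows and columns as libraries and r printed in each cell. The highest value off the diagonal is between control library 2 and PRMT1 library 2 (0.93), and values in the PRMT1 library 1 column are among the lowest.

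Database piRNAs were low in PRMT1 library 1. They summed to 3336 CPM there, against 11116 to 22759 CPM in the other 5 libraries, whereas LINE rows summed to 1037 CPM, within their range. Of the 161 rows listed everywhere, control library 2 was lowest in 67 and PRMT1 library 1 in 43, and control library 1 was highest in 54. Within the chrX element, PRMT1 library 1 was lowest in 18 of 28 such rows. The part of these library differences in the group comparison was not tested beyond leaving out each library, where no member was called in any of the 6 fits. The fit without PRMT1 library 2 came nearest, with 48 of 287 members (16.7%) at an unadjusted p of 0.05, against 9.59% of all 1857 rows of that fit, and a lowest adjusted p of 0.321.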

How the data were processed

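Small RNA of 6 libraries was analysed, 3 per group. The deposited counts are whole reads per feature, and each deposited TPM matched the CPM of the library total to within 0.005. Per the submitters' processing notes, the tools were HISAT, Bowtie2 and RSEM and the build was GRCh37.p13. The piRNA predictor, its limits, read sharing between repeat copies and use of strand are not given in the sources used here. A read that matches several copies of an element could be split or placed at 1 of them, so rows of repeats are uncertain. No genome of that build was used here, so no gene annotation or sequence is given.

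Rows were joined by class, identifier and description, with an absent row as 0. Totals for 4 read classes (23.3% to 40.4% of counts) stayed in the CPM denominator but out of the fits. Rows were filtered with filterByExpr, scaled with TMM and tested by edgeR 4.0.16 (quasi-likelihood, robust), without a block, at a Benjamini-Hochberg adjusted p of 0.05. DESeq2 1.42.0, limma 3.58.1 (voom) and other scalings and filters were alternatives. Sums were compared by two-sided exact permutation tests (numpy 2.4.6), and the chi-square between libraries used scipy 1.17.1. The code was tested on simulated data. At the spread between libraries fitted here, edgeR recovered 0.435% of rows changed 2-fold and 5% of rows changed 4-fold. At a low spread it recovered 88.2% and 100%. That no member passed therefore does not show that levels were equal. The members and lists were chosen with earlier results of these data known. Named rows were the 6 of smallest p per direction, the 10 of highest mean CPM and up to 3 of highest mean CPM per family; others are said to be chosen later, or are given for a listing pattern or as the main row of an element.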

Additional observations from a re-analysis of the deposited data

How the results depend on the processing

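The count of members past the threshold stayed at 0 in edgeR when scaled by library size alone, RLE or upper quartile, without a filter, with a stricter filter, with piRNA rows only, and with limma-voom, and it was 2 with DESeq2. Treating unlisted rows as 9 counts or keeping only rows listed in all 6 libraries, both chosen after seeing the data, also gave 0. None of the 29 tested named rows passed in any setting. Signs near 0 changed. With library size only, which moves the median of all rows to 0.15, the log2 fold change became 0.066 for novel_pir401, 0.063 for novel_pir486, 0.126 for novel_pir881 and 0.078 for novel_pir884. It was 0.007 (RLE), 0.035 (upper quartile) and 0.013 (DESeq2) for novel_pir486, and 0.004 (RLE) and 0.008 (DESeq2) for novel_pir881. Over rows listed in all 6 libraries the log2 ratio of sums was -0.00722 for all members, -0.0122 for L1 and -0.142 for L2. The cause was not tested.

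Leaving out 1 library gave log2 ratios from -0.0475 to 0.297 for the sum of all members and from -0.0677 to 0.276 for L1, both negative without control library 2 alone. Log2 fold changes then ranged from -0.285 to 0.555 for novel_pir161, -0.27 to 0.207 for novel_pir401, -0.253 to 0.279 for novel_pir486, -0.078 to 0.451 for novel_pir489, -0.163 to 0.224 for novel_pir881, -0.195 to 0.146 for novel_pir884 and -0.228 to 0.015 for novel_pir886. The chr8 element with 41 rows was also below 0 without PRMT1 library 1 (-0.03) or 3 (-0.06), and with unlisted rows at 9 counts (-0.03). Where a library was left out, no member passed (0 in each fit).

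The replicate block gave 0 members past the threshold, with 16 (6.48%) at an unadjusted p of 0.05 against 3 (1.21%) without it, where all tested rows gave 3.56% and 3.5%. Over all tested rows, same-numbered libraries deviated together with r = 0.133, 0.229 and 0.0211 for numbers 1 to 3. Over the 247 tested members the values were 0.0327, 0.395 and 0.19. Control library 3 was more like PRMT1 library 1 there (0.329). Not every sample correlated best with its own number, so the numbers were not taken as pairs.

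The limit of 10 counts hides smaller values, so differences in listing are not detectable below about 0.4 CPM. With 3 libraries a group, exact tests cannot go below p = 0.1.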
